A study of Mus musculus with 6 samples.

Results

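The collagen genes of the mouse cochlea were described as 1 family, taken as every protein-coding gene whose symbol is Col, a type number, a and a chain number. The annotation holds 44 such genes, and all 44 were among the 25419 genes of the expression table. Cochlear tissue was collected from C57BL/6 mice, an inbred strain that loses hearing early. The young mice were 1 month old by the sample labels (4 weeks by the study's methods) and the old mice were 12 months old, and the labels give no other allele or treatment for either group. Each age group had 3 samples and each sample mixed the tissue of 3 mice, so the spread between samples is a spread between pools. The labels call the tissue cochlea and the protocol names the dissected basilar membrane, and genes of hair cells, supporting cells, Schwann cells, fibrocytes and bone were all measured in it.

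Collagens are the main structural proteins of connective tissue, made of chains that wind around each other into a helix in the endoplasmic reticulum. The fibrillar types I, III and V carry load in bone and soft tissue, and type IV forms the sheets of basement membranes. Types II, IX and XI build the fibrils of cartilage and, in the cochlea, of the tectorial membrane, the gel that lies on the hair bundles. The FACIT types (fibril-associated collagens with interrupted helices) decorate fibrils, and smaller groups form beaded filaments, hexagonal networks or transmembrane proteins. Mutations of COL2A1, COL4A3, COL4A4, COL4A5, COL9A1, COL9A2, COL9A3, COL11A1 and COL11A2 are known causes of hereditary hearing loss, alone or as part of a syndrome.

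Levels are given as FPKM (fragments per kilobase of transcript, scaled to the depth of the library), summed over the transcripts of a gene. FPKM are per length, so levels of different genes can be set side by side. Values in single samples are given in the order of replicates 1, 2 and 3. A change is the limma estimate of the log2 difference of FPKM + 0.1, old minus young, with its standard error (SE). A gene is said to have risen or fallen where its Benjamini-Hochberg adjusted p, over 19465 genes with a mean of at least 0.1 FPKM, was below 0.05. In whole tissue, fewer cells of a type and less RNA per cell cannot be told apart.

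The measured collagen FPKM of the cochlea changed in their make-up with age and little in their sum. All 44 genes summed to 724.5 ± 94.4 FPKM in the young samples and 704.4 ± 55.0 FPKM in the old samples (mean ± SD, n = 3). This was 0.125% ± 0.0156 of the FPKM of the whole table in the young and 0.118% ± 0.0101 in the old samples, and the groups overlapped. The cartilage and tectorial chains held 59.4%, 63.7% and 62.5% of the collagen FPKM in the young samples and 72.6%, 72.1% and 71.3% in the old samples. Types II and XI are fibrillar collagens too, but are counted here and below with the cartilage and tectorial chains. The 8 other fibrillar chains held 20.7%, 14.6% and 15.5% in the young samples and 7.02%, 6.50% and 6.80% in the old samples. Neither of these shares overlapped between the age groups. The summed FPKM of the cartilage and tectorial chains did overlap, at 495.3, 423.5 and 422.2 in the young and 540.3, 523.9 and 457.3 in the old samples. The fibrillar sums did not, at 172.2, 97.1 and 105 in the young and 52.3, 47.3 and 43.7 in the old samples. Shares sum to a whole, so a lower share of one type raises the others. The sums, shares and ranks include Col1a1, whose FPKM are in doubt as a level, as described below.

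**Figure D1:**
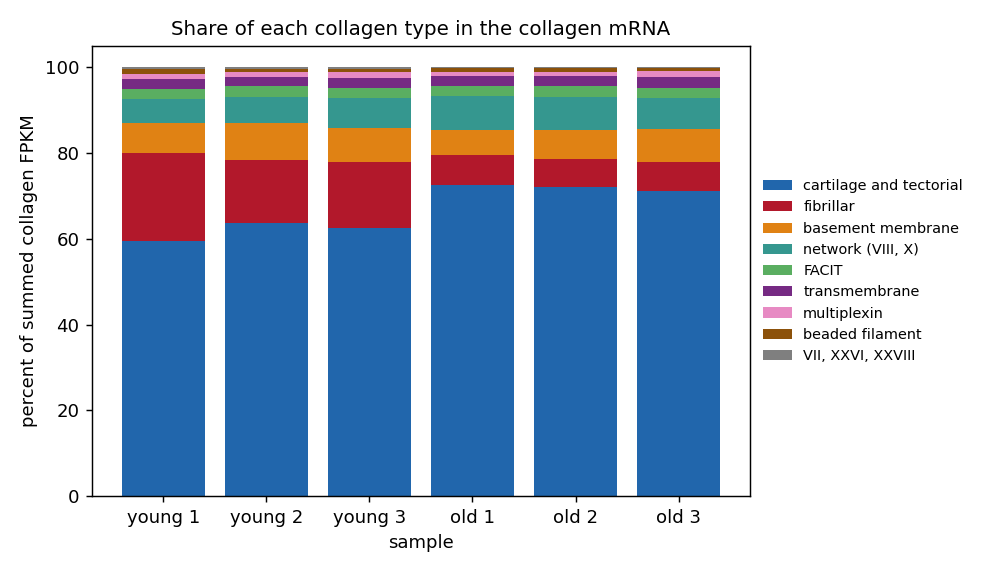
Share of each collagen type in the summed collagen FPKM of each sample (bars, percent, 1 bar per sample, 3 young and 3 old). Cartilage and tectorial chains, which include the fibrillar types II and XI, made up 59.4% to 63.7% in the young and 71.3% to 72.6% in the old samples. The other fibrillar chains made up 14.6% to 20.7% and 6.50% to 7.02%. The shares include Col1a1, whose level is in doubt.

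Col11a2, a chain of the thin cartilage and tectorial fibrils, was the most abundant collagen mRNA at both ages. It alone held 33.7% ± 1.10 of the collagen FPKM in the young and 44.0% ± 0.448 in the old samples. All cartilage and tectorial chains together held 61.9% ± 2.21 and 72.0% ± 0.659, so the mean share of this group rose by no more than that of Col11a2. The change of the level of Col11a2 missed the threshold (adjusted p = 0.066). Col9a2 had rank 2 at both ages. Col1a2 had rank 3 in the young samples, with 9.95% ± 1.42 of the collagen FPKM, and rank 7 in the old samples, with 2.65% ± 0.217. A mean of 50 FPKM or more was reached by 3 collagen genes at each age, 10 FPKM by 16 genes in the young and 12 in the old samples, and 1 FPKM by 36 and 32 genes.

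Of the 44 genes, 41 passed the filter on low values. Col6a4, Col6a5 and Col17a1 did not, with no sample above 0.159 FPKM. Among the 41 genes, 3 rose and 8 fell, where 5.65% of all tested genes rose and 3.81% fell. The change was positive for 16 and negative for 25 collagen genes, with a median of -0.22 against 0.01 over all tested genes. The age groups did not overlap in 20 collagen genes, with the old samples higher in 7 and lower in 13, where 17.6% and 16.1% of all tested genes showed this. At an unadjusted limma p below 0.05, 7 collagen genes were higher and 14 lower, where 14.6% and 13.1% of all tested genes were. The genes that fell were Col1a2, Col3a1, Col5a2, Col4a3, Col4a4, Col11a1, Col9a2 and Col15a1, and those that rose were Col9a1, Col9a3 and Col23a1.

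**Figure D2:**
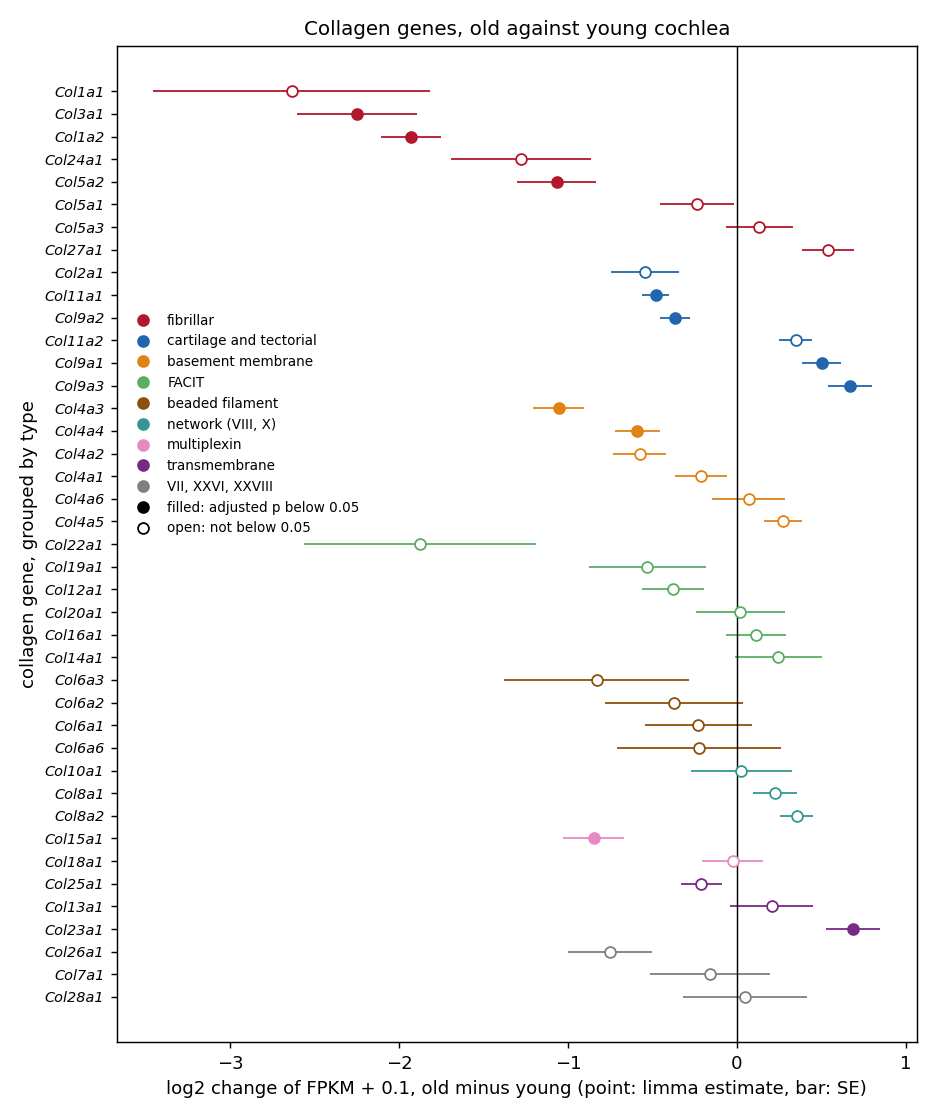
Change of the 41 tested collagen genes (x axis, log2 of FPKM + 0.1, old minus young, limma estimate with SE as the bar), grouped and coloured by type, with filled points for an adjusted p below 0.05. The 3 filled genes of the fibrillar group lie between -2.25 and -1.07, and the cartilage and tectorial chains lie on both sides of 0.

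The 3 largest falls were of fibrillar genes. Of 8 fibrillar genes, 3 fell and none rose, where 3.81% of all tested genes fell and 5.65% rose, and the median change was -1.17. Col1a2 (ENSMUSG00000029661, chr6:4504814-4541544, GRCm38) codes for the second chain of type I collagen, the main collagen of bone, tendon and skin. Its 3 young samples held 96.3, 59.1 and 63.5 FPKM and its 3 old samples 20.4, 17.5 and 18.1 FPKM, a change of -1.93 (SE 0.18, adjusted p = 0.00709). The groups lay far apart, and the level was 3.81-fold lower in the old samples. Type III collagen (Col3a1, ENSMUSG00000026043, chr1:45311538-45349706), which accompanies type I in soft tissue and vessel walls, held 22.7, 8.38 and 9.58 FPKM in the young and 2.26, 2.39 and 2.87 FPKM in the old samples. Its change was -2.25 (SE 0.35, adjusted p = 0.0186), with young replicate 1 the highest. Col5a2 (ENSMUSG00000026042, chr1:45374321-45503282), a chain of the type V collagen that nucleates type I fibrils, held 9.79, 5.97 and 5.60 FPKM in the young and 3.72, 3.32 and 2.76 FPKM in the old samples (-1.07, SE 0.24, adjusted p = 0.0365). The groups did not overlap in any of these 3 genes.

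The other chains of this fibrillar group did not pass the threshold. Col1a1, which pairs with Col1a2 in type I collagen and is described here after its values were seen, held 24.9, 1.71 and 6.21 FPKM in the young and 1.07, 0.958 and 0.866 FPKM in the old samples. All old samples lay below all young ones, but the young samples spread widely (coefficient of variation 112%) and the change of -2.64 (SE 0.82) had an adjusted p of 0.0871. Col1a1 stayed far below Col1a2 in every sample, with 3.87, 34.5 and 10.2 times more Col1a2 than Col1a1 FPKM in the young and 19.1, 18.3 and 20.9 times more in the old samples. Type I collagen usually holds more of the Col1a1 chain than of the Col1a2 chain, so this order is unusual. Its cause was not tested, and the FPKM of Col1a1 in this table are in doubt as a level. Col24a1 had means of 4.85 ± 2.37 and 1.85 ± 0.725 FPKM (adjusted p = 0.096) and the related Col27a1, known from cartilage, 11.2 ± 0.301 and 16.6 ± 3.40 FPKM (adjusted p = 0.0698). The Col24a1 sum includes a short transcript of 330 nt, with 75.75% of the gene in young replicate 2, 42.7% in young replicate 3 and 58.4% in old replicate 3. The Col24a1 transcript of 7143 nt went from 2.34 ± 0.533 to 1.33 ± 0.241 FPKM, with groups apart (limma adjusted p = 0.262 over transcripts). Col5a1 and Col5a3 had changes of -0.23 and 0.13.

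Markers of bone were set beside the type I and type III chains. The list of 10 osteoblast and bone genes summed to 328, 87.9 and 181 FPKM in the young and 65.6, 80.7 and 87.0 FPKM in the old samples. Of these 10 genes, 9 had a negative change and 2 fell, Ibsp (bone sialoprotein) and Sp7 (osterix), and none was at 0 in all samples. Over all 19465 tested genes, 9545 had a negative change and 3.81% fell. Alpl (alkaline phosphatase) had a positive change of 0.59 (SE 0.23, adjusted p = 0.149). Bglap (osteocalcin) held 133.4, 8.61 and 51.3 FPKM in the young and 2.20, 8.09 and 5.45 FPKM in the old samples (adjusted p = 0.0848). Young replicates 1, 3 and 2 had, from high to low, the same order in Bglap, in the bone sum and in Col1a1, Col1a2 and Col3a1. Col5a2 had the order 1, 2 and 3. Among the old samples, replicate 1 had the lowest bone sum and Col3a1 but the highest Col1a1 and Col1a2. Young replicate 1 was the highest young sample in 26 of all 41 tested collagen genes, and young replicate 2 the lowest in 23. The summed level of 6 proliferation genes was also highest in young replicate 1, at 9.68 FPKM against 1.5 to 3.45 FPKM in the other samples. The part of bone cells in the fall of Col1a2 and Col3a1 was not tested. Without young replicate 1, Col1a2 (-1.71, SE 0.10) and Col3a1 (-1.81, SE 0.18) still passed the threshold, and Col5a2 did not (-0.82, SE 0.19, adjusted p = 0.063).

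**Figure D3:**
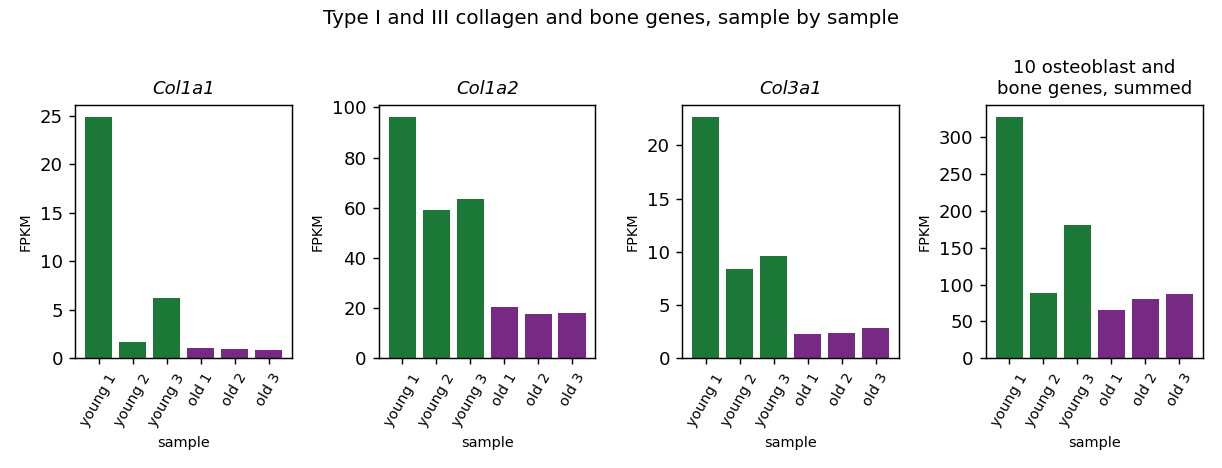
FPKM of Col1a1, Col1a2, Col3a1 and the sum of 10 osteoblast and bone genes in each sample (bars, linear axes that start at 0). Young replicate 1 is the highest in all 4 panels, and the lowest young bone sum, 87.9 FPKM, lies close to the highest old one, 87.0 FPKM.

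The windows before the starts of Col1a2 and Col3a1, the genes with the lowest adjusted p among the fibrillar chains, were read from the RefSeq promoter table (GRCm38.p6, plus strand). They are shown because both genes fell while their windows share none of the motifs searched. These were the CCAAT box, the TATA box with the letters TATAAA and the GC box with the letters GGGCGG, on either strand. They do not overlap here and stand in capitals. For Col1a2 the stretch chr6:4505370-4505522 is given, which lies in part in the first exon of the annotated main transcript. For Col3a1 the stretch is chr1:45311288-45311537, which ends where the gene starts. The TATAAA of Col3a1 begins 117 bases before that start. The CCAAT of Col1a2 lies in the first exon of the annotated main transcript. It begins 109 bases before the RefSeq start, 4505618, which lies beyond the end of the printed stretch.
Col1a2: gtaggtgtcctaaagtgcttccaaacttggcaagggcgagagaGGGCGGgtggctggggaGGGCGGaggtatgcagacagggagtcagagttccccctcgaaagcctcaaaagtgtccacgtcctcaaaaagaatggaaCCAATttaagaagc
Col3a1: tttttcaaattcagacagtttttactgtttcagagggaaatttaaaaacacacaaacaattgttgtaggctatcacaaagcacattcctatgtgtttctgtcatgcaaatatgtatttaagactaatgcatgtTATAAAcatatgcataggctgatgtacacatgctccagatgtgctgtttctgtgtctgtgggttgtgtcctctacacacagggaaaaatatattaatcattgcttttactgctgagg
The Col1a2 stretch had 54.2% G and C and the Col3a1 stretch 35.2%. Of the 44 genes, 35 had a window of 250 bases in the table, 38 windows in all. CCAAT stood in 13 of these 38 windows against 33.8% of all 32851 windows, TATAAA in 5 against 12.4%, and GGGCGG in 22 against 32.7%. A match is a description of the letters and not evidence of a bound factor.

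The cartilage and tectorial chains moved in both directions. The age groups did not overlap in any of the 6 genes, 2 rose and 2 fell, and the median change was -0.01. Over all tested genes, 5.65% rose and 3.81% fell, and groups were apart with the old higher in 17.6% and lower in 16.1%. Type IX collagen, which sits on the surface of type II and XI fibrils, is built from the products of Col9a1, Col9a2 and Col9a3. Col9a3 (ENSMUSG00000027570, chr2:180597790-180622189) held 41.5, 36.2 and 34.0 FPKM in the young and 67.3, 62.6 and 49.0 FPKM in the old samples, a rise of 0.67 (SE 0.13, adjusted p = 0.0278). Col9a1 (ENSMUSG00000026147, chr1:24177610-24252684) held 21.5, 18.5 and 17.9 FPKM in the young and 28.1, 30.3 and 23.8 FPKM in the old samples (0.50, SE 0.12, adjusted p = 0.0412). In contrast, Col9a2 (ENSMUSG00000028626, chr4:121039385-121055322) held 109.4, 98.0 and 88.0 FPKM in the young and 75.1, 79.0 and 74.1 FPKM in the old samples (-0.37, SE 0.09, adjusted p = 0.044). In each of the 3 genes the age groups were apart, and the rises and the fall were all under 2-fold.

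Type XI collagen forms the core of the thin fibrils. Col11a1 (ENSMUSG00000027966, chr3:114030540-114220718) held 21.9, 23.8 and 23.8 FPKM in the young and 16.4, 17.4 and 16.0 FPKM in the old samples (-0.48, SE 0.08, adjusted p = 0.0205), with a spread under 5% in both groups. Col11a2 (ENSMUSG00000024330, chr17:34039437-34066685) held 273, 221.9 and 235.9 FPKM in the young and 330.9, 316.6 and 281.8 FPKM in the old samples. Its groups did not overlap either, but the change of 0.35 (SE 0.10) missed the threshold at an adjusted p of 0.066. Col2a1, the main chain of cartilage fibrils, had means of 25.3 ± 2.71 FPKM in the young and 17.7 ± 4.93 FPKM in the old samples (-0.54, SE 0.20, adjusted p = 0.132).

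**Figure D4:**
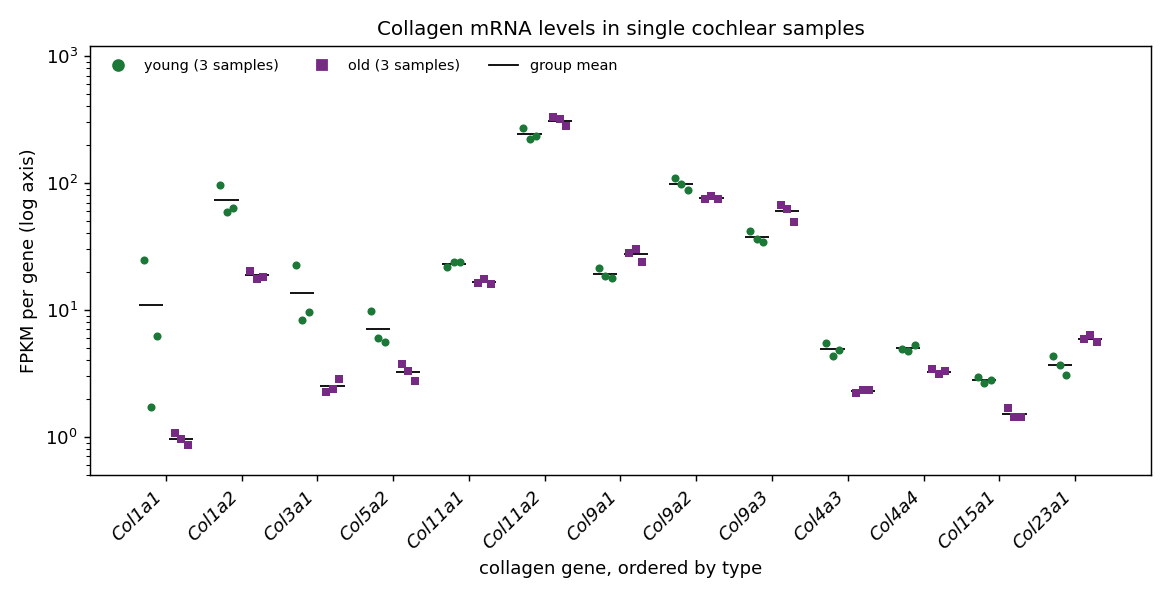
FPKM per gene (log axis) in each of 3 young (circles) and 3 old (squares) samples, with the group mean as a line, for the collagen genes that passed the threshold, Col11a2 and Col1a1. Col11a2 is the highest at every point, from 221.9 to 330.9 FPKM, and Col1a1 has the widest spread, from 1.71 to 24.9 FPKM in the young samples.

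Ratios of chains within a sample do not change with the factor that scales a library. Of 14 pairs computed, the age groups were apart in 9 and overlapped in 5, which were Col1a1 to Col1a2, Col3a1 to Col1a2, Col4a5 to Col4a6, Col6a1 to Col6a2 and Col8a1 to Col8a2. Several pairs share a gene, so these counts are not independent of each other or of the changes of single genes. The share of groups apart over all pairs of genes was not computed. The FPKM ratio of Col9a3 to Col9a2 was 0.379, 0.369 and 0.387 in the young and 0.895, 0.792 and 0.661 in the old samples, 2.07 times higher in the old. Col9a1 to Col9a2 went from 0.196 ± 0.00737 to 0.360 ± 0.0331, and Col9a3 to Col9a1 from 1.93 ± 0.0280 to 2.17 ± 0.193. Col11a2 exceeded Col11a1 by 10.6 ± 1.69 times in the young and 18.7 ± 1.32 times in the old samples. The ratio of Col11a2 to Col2a1 was 9.66 ± 0.778 and 18.2 ± 3.85. Each of the 9 ratios with groups apart gave an exact two-sided permutation p of 0.1 (0.156 adjusted over the 14 pairs), the smallest that 3 samples against 3 can give.

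**Figure D5:**
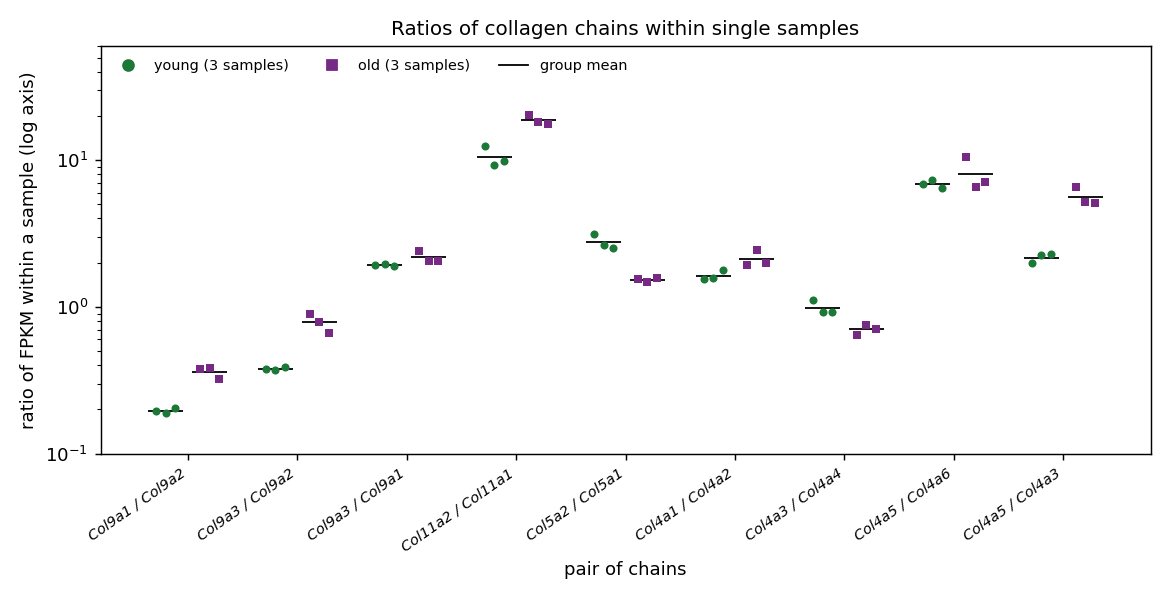
Ratio of the FPKM of pairs of collagen chains within each sample (log axis), for 3 young (circles) and 3 old (squares) samples with group means as lines. The age groups are apart in 8 of the 9 pairs drawn and overlap for Col4a5 to Col4a6, against 9 apart and 5 overlapping of all 14 pairs computed.

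Markers of cartilage did not move as 1 group. The 8 chondrocyte genes summed to 412 to 489 FPKM in the young and 548 to 596 FPKM in the old samples, most of it Cnmd (chondromodulin), which rose from 405.3 ± 43.9 to 526.8 ± 24.1 FPKM. Acan (aggrecan) and Hapln1 (link protein) fell and Matn1 (matrilin 1) rose. Of the chondrocyte list, Matn3 and Snorc were at or near 0. Genes of the tectorial membrane other than collagens were also read. Of 6, 3 rose, Otoa (otoancorin, 0.68, SE 0.09), Otog (otogelin, 0.71, SE 0.15) and Ceacam16 (0.61, SE 0.13), with adjusted p of 0.0132, 0.0316 and 0.0354. Over all tested genes, 5.65% rose and 3.81% fell. Tectb (beta-tectorin) and Otogl (otogelin-like) had negative changes of -0.62 (SE 0.25) and -0.38 (SE 0.15) that did not pass, with adjusted p of 0.161 and 0.157. Tecta, which codes for the main tectorial glycoprotein, was low at both ages, at 0.115 ± 0.0250 and 0.152 ± 0.0621 FPKM.

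Forms of Col9a1 and Col2a1 were separated in the table by transcript. Col9a1 has a long form that starts at 24177610 on chromosome 1 (GRCm38) and a short form that starts at 24195187, inside the gene, and lacks the exons that code for the large amino-terminal domain. The short form is known from the eye and the long form from cartilage. In the cochlea the short form made up nearly all Col9a1 mRNA. It held 21.2, 17.9 and 17.4 FPKM in the young and 27.7, 30.1 and 23.7 FPKM in the old samples, and the long form 0.236, 0.529 and 0.498 FPKM in the young and 0.405, 0.129 and 0.158 FPKM in the old samples. The share of the short form was 97.8% in the young and 99.2% in the old samples. Its change of 0.52 (SE 0.12) did not pass, with an adjusted p of 0.1 over 38764 transcripts.

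The windows before both starts, RefSeq GRCm38.p6 on the plus strand, are shown because only the second lies before the form that the cochlea used. The window before the long form is chr1:24177360-24177609 and that before the short form chr1:24194953-24195202, whose last bases lie in the first exon of the annotated short form. CCAAT stands in capitals, and the first window holds none of the motifs searched.
Col9a1 long form: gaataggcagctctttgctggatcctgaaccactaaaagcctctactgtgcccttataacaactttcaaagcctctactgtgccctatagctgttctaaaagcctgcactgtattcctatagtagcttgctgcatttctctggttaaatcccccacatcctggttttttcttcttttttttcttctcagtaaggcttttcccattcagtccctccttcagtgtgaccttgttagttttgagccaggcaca
Col9a1 short form: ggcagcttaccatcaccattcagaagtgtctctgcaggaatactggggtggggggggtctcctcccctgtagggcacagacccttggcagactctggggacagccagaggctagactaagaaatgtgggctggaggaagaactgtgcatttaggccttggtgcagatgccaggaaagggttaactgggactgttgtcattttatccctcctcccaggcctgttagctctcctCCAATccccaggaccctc
G and C made up 43.6% of the first window and 56.0% of the second.

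Col2a1 is spliced with or without its second exon of 204 nt (chromosome 15, 98000403 to 98000606, GRCm38), and the form with it is known from cells that are not yet mature chondrocytes. The transcript with this exon held 19.7, 13.8 and 13.7 FPKM in the young and 13.4, 9.43 and 6.13 FPKM in the old samples. The one without it held 8.37, 7.59 and 7.89 FPKM in the young and 9.09, 8.72 and 6.49 FPKM in the old samples. Neither passed the threshold (adjusted p = 0.264 and 0.981). The main transcript of Col11a2 held 50.5% ± 2.75 of the gene in the young and 50.5% ± 4.47 in the old samples.

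Single transcripts were also tested. The table lists 101 transcripts of collagen genes, of which 79 passed the filter. The main transcripts of Col1a2 (-1.91, SE 0.21, adjusted p = 0.0348) and Col3a1 (-2.29, SE 0.31, adjusted p = 0.0421) fell, where 0.199% of all tested transcripts fell. No collagen transcript rose, where 0.549% of all tested transcripts rose, and at an unadjusted limma p below 0.05, 8 collagen transcripts were higher and 16 lower, where 9.05% and 7.98% of all tested transcripts were.

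In type IV collagen, the pair Col4a3 and Col4a4 fell, whose products form the network of basement membranes in the kidney and the cochlea. Type IV genes lie head to head in pairs, with starts 21 nt apart for Col4a1 and Col4a2 (chromosome 8), 127 nt for Col4a3 and Col4a4 (chromosome 1) and 1309 nt for Col4a5 and Col4a6 (chromosome X). Of the 6 genes, 2 fell and none rose, where 3.81% of all tested genes fell and 5.65% rose. Col4a3 (ENSMUSG00000079465, chr1:82586921-82722059) held 5.44, 4.36 and 4.86 FPKM in the young and 2.21, 2.35 and 2.33 FPKM in the old samples (-1.05, SE 0.15, adjusted p = 0.0149). Its partner Col4a4 (ENSMUSG00000067158, chr1:82448423-82586849) held 4.88, 4.74 and 5.27 FPKM in the young and 3.41, 3.10 and 3.28 FPKM in the old samples (-0.59, SE 0.13, adjusted p = 0.0376). Both had groups apart by more than the spread within them. Col4a5, whose product joins those of Col4a3 and Col4a4 in 1 network, did not pass the threshold, at 10.5 ± 0.635 FPKM in the young and 12.8 ± 1.52 FPKM in the old samples (0.28, SE 0.11, adjusted p = 0.169).

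The ratio of Col4a5 to Col4a3 was 1.97, 2.26 and 2.28 in the young and 6.61, 5.16 and 5.07 in the old samples. Col4a3 to Col4a4 went from 0.986 ± 0.113 to 0.704 ± 0.0545. The chains of every basement membrane, Col4a1 and Col4a2, had means of 21.2 ± 1.76 and 13.1 ± 2.00 FPKM in the young and 18.5 ± 3.74 and 8.71 ± 1.20 FPKM in the old samples, with adjusted p of 0.426 and 0.0596. The Col4a1 sum includes a short transcript of 545 nt, with 19.8% of the gene in the young and 32.3% in the old samples. The Col4a1 transcript of 6615 nt went from 17.05 ± 2.77 to 12.4 ± 1.85 FPKM, with groups apart (-0.45, SE 0.17, adjusted p = 0.24). Col4a6 was at 1.54 ± 0.188 and 1.63 ± 0.223 FPKM. Of 12 partners of type IV collagen in basement membranes, Lama2 (laminin alpha 2) fell by 0.53 (SE 0.08) and Lama5 (laminin alpha 5) rose by 0.52 (SE 0.11), with adjusted p of 0.0189 and 0.0354. Among all tested genes, 3.81% fell and 5.65% rose. The 7 endothelial and pericyte genes summed to 141 to 191 FPKM in the young and 128 to 165 FPKM in the old samples, and none passed the threshold. The unadjusted limma p was below 0.05 in 2 of them, both lower.

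The other types held 2 genes that passed. Col15a1 (ENSMUSG00000028339, chr4:47208161-47313167), a multiplexin next to basement membranes of vessels and muscle, held 2.97, 2.63 and 2.82 FPKM in the young and 1.69, 1.43 and 1.43 FPKM in the old samples (-0.85, SE 0.18, adjusted p = 0.0334). The related Col18a1, the source of endostatin, was at 6.03 ± 0.60 and 6.00 ± 1.36 FPKM. Col23a1 (ENSMUSG00000063564, chr11:51289920-51583918), a transmembrane collagen, held 4.34, 3.66 and 3.05 FPKM in the young and 5.89, 6.32 and 5.61 FPKM in the old samples (0.69, SE 0.16, adjusted p = 0.0421). Its relatives Col13a1 and Col25a1 had changes of 0.21 and -0.21 and did not pass. The age groups did not overlap in Col15a1 or in Col23a1.

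Type IX collagen is also a FACIT type, and its genes, which passed, are counted above with the cartilage and tectorial chains. None of the 6 other FACIT genes passed, with a median change of -0.18 and 1 gene below 0.05 without adjustment, Col22a1. It was at 0.914 ± 0.662 FPKM in the young and 0.131 ± 0.0821 FPKM in the old samples, about 7 to 15 fragments per old sample (-1.88, SE 0.69, adjusted p = 0.129). Col16a1 and Col14a1 were the highest of these 6, at 7.93 ± 0.0810 and 4.43 ± 1.75 FPKM in the young and 8.76 ± 2.18 and 5.04 ± 0.422 FPKM in the old samples. None of the 4 tested beaded filament genes (type VI) passed, all with a negative change, and Col6a1, Col6a2 and Col6a3 were highest in young replicate 1. Network collagens had 3 positive changes and none that passed. Col8a2 was at 14.7 ± 1.46 and 18.7 ± 0.468 FPKM (0.36, SE 0.10, adjusted p = 0.0619) and Col8a1 at 28.2 ± 1.69 and 33.2 ± 5.65 FPKM. Col10a1, the collagen of hypertrophic cartilage, was at 1.74 ± 0.237 and 1.85 ± 0.701 FPKM. Of the remaining Col7a1, Col26a1 and Col28a1, none passed, and Col26a1 was at 1.27 ± 0.157 and 0.712 ± 0.0461 FPKM (adjusted p = 0.1).

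Genes around collagen were read from lists of enzymes, chaperones, cross-linkers, receptors, breakdown genes, regulators and the partners in the tectorial and basement membranes, chosen with earlier results of these data known. Of 79 genes, 77 passed the filter, 10 rose and 7 fell, where 5.65% of all tested genes rose and 3.81% fell, and the median change was 0.02 against 0.01 over all tested genes. Of the 37 genes that modify, export, cut or cross-link the chains, 35 were tested, 4 rose and 5 fell. Lox, the lysyl oxidase that starts the cross-links of fibrils, held 34.1, 34.9 and 37.8 FPKM in the young and 19.7, 18.3 and 17.7 FPKM in the old samples (-0.94, SE 0.08, adjusted p = 0.00536). Loxl4, of the same enzyme family, rose from 1.59 ± 0.327 to 3.61 ± 0.319 FPKM (1.15, SE 0.20, adjusted p = 0.0225). Serpinh1, the collagen chaperone HSP47, held 127.8, 120.8 and 136.8 FPKM in the young and 84.0, 86.8 and 86.3 FPKM in the old samples (-0.58, SE 0.07, adjusted p = 0.0111). The groups of all 3 genes were apart. No other gene of the 9 for folding and export passed.

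Enzymes that modify the chains moved both ways. Of 15, P4ha1 (a prolyl 4-hydroxylase subunit, -0.52, SE 0.07, adjusted p = 0.0136) and Plod1 (a lysyl hydroxylase, -0.55, SE 0.10, adjusted p = 0.0257) fell. Ppib (cyclophilin B, 0.33, SE 0.06, adjusted p = 0.0244) and Crtap (its partner in prolyl 3-hydroxylation, 0.58, SE 0.14, adjusted p = 0.047) rose. Of the 6 tested genes for cutting the propeptides, the enhancer Pcolce rose from 14.8 ± 2.60 to 27.1 ± 4.79 FPKM (adjusted p = 0.0278), while its homologue Pcolce2 fell from 4.82 ± 0.560 to 2.37 ± 0.217 FPKM (adjusted p = 0.0196). Among 8 receptors, the collagen-binding kinases Ddr1 (0.51, SE 0.12, adjusted p = 0.0451) and Ddr2 (0.36, SE 0.07, adjusted p = 0.026) rose. None of the 7 genes of collagen breakdown passed, either with or without adjustment. Of 9 regulators, Sp7, which also stands in the bone list, fell from 1.13 ± 0.180 to 0.432 ± 0.0925 FPKM (adjusted p = 0.0476).

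Marker genes of other cell types were read in the same way. The 8 fibroblast and fibrocyte genes summed to 10612.9 to 13012.2 FPKM in the young and 8432.2 to 8692.6 FPKM in the old samples. Most of it was Coch, a gene of spiral ligament and limbus fibrocytes that fell, as did Dcn (decorin). The list did not move as 1 group, with 6 negative and 2 positive changes. The positive ones, of Lum and Pi16, had groups apart but did not pass (adjusted p = 0.0682 and 0.148). The 7 macrophage genes summed to 98 to 145 FPKM in the young and 574 to 650 FPKM in the old samples, and 6 of them rose. Hair cell genes summed to 707 to 952 and 369 to 437 FPKM, with 3 of 7 tested genes lower. Most of this sum was Calb2, at 702.6 ± 176 and 319 ± 25.6 FPKM. Myo7a (0.002, SE 0.22) and Otof (-0.33, SE 0.16) did not pass, with adjusted p of 0.997 and 0.235. Schwann cell genes summed to 788 to 1220.0 and 671 to 701 FPKM, with 3 of 7 lower. Of all tested genes, 5.65% rose and 3.81% fell. Supporting cell genes summed to 1340.8 to 1516.0 and 1507.7 to 1653.2 FPKM, with 1 gene up and 1 down. Muscle genes summed to 0.407 to 2.58 FPKM in the young and 3.13 to 17.4 FPKM in the old samples, with the highest sum in old replicate 1. All 6 tested muscle genes had a positive change and none passed. Their part in the collagen changes was not tested.

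Within the groups, young replicate 1 was the highest young sample in 26 of the 41 tested collagen genes, and old replicate 3 the lowest old sample in 25. The smallest FPKM values come in steps of 1 fragment, which gave a depth of 12560000 to 15670000 fragments per sample. Col3a1 thus rests on about 578 fragments or more in each young and 139 to 198 in each old sample, and Col1a1 on 66.2 to 84.8 in each old sample. Col1a2 passed the threshold under all 19 other settings of the processing, and Col4a3 under 18. These settings include the unadjusted p and the 2-fold rule, which reuse the main fit. A gene past the adjusted threshold cannot fail the unadjusted one. Without old replicate 2, when 0.319% of all genes were called, Col1a2 was the collagen gene that remained, and Col4a3 had an adjusted p of 0.0617. Col3a1 missed it without any single old sample (adjusted p = 0.0526 to 0.0681). Col4a4, Col9a1 and Col15a1 missed it whichever sample was left out (0.0533 to 0.134), Col5a2 and Col9a2 without each sample but young replicate 3 (0.063 to 0.118), and Col23a1 without each but young replicate 1 (0.0703 to 0.141). Col11a1 missed it without young replicate 2 or any old sample (0.0602 to 0.0681), and Col9a3 without young replicate 2 or 3 or old replicate 1 or 2 (0.055 to 0.101). No direction reversed in any of the 11 genes.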

How the data were processed

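Cochlear RNA of 3 young and 3 old samples was sequenced by the authors from directional libraries as 150 bp paired-end reads. The submitters' processing notes name GRCm38, CASAVA (v1.8), TopHat2 (v2.0.9), Cufflinks (v2.1.1) and Cuffdiff (v2.1.1). The deposited values are FPKM per transcript, computed by the authors. How libraries were scaled is not given in the sources used here. FPKM cannot separate a change of a gene from the share that other genes take.

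Transcripts were matched to GENCODE M21 (404 Ensembl transcripts were not matched) and summed per gene. Age was tested with limma 3.58.1 in R 4.3.3 (eBayes with trend, age as the only term, two-sided), and the code was tested on simulated data. Where nothing ties samples to separate litters or days, p-values measure the spread between these pools. The collagen genes given sample by sample are those past the threshold or averaging 50 FPKM or more at either age, with Col1a1 added after its values were seen, beside at most 3 passing genes of each pathway list. Members and lists of pathway and cell type genes were chosen with earlier results of these data known. Sp7, Runx2, Sox9 and Otog stand in 2 lists, and Ctgf was not found under this symbol. Fragments were estimated where 92.4% to 94% of low values were within 0.1 of a whole number (20% by chance). Plots used Python 3.11.15 and matplotlib 3.10.9. The alternatives are in the closing section.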

Additional observations from a re-analysis of the deposited data

How the results depend on the processing

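Of the collagen genes, 3 were higher and 8 lower in old cochlea, of the pathway genes 10 and 7, and of the collagen transcripts 0 and 2. With no filter on low values these counts were 0 and 4, 0 and 4, and 0 transcripts lower, and without a variance trend 0 and 4, 1 and 4, and 0 transcripts lower. A mean of at least 1 FPKM gave 4 transcripts lower, a pseudocount of 1 gave 1, and sample weights (arrayWeights) gave 5 collagen genes higher. An unadjusted p gave 7 and 14 collagen genes, 17 and 16 pathway genes and 8 and 16 transcripts. At least 2-fold gave 0 and 4 collagen genes and 1 and 1 pathway genes. Leaving out each sample gave 0 to 2 collagen genes higher and 1 to 7 lower, 0 to 13 pathway genes higher and 1 to 6 lower, and 0 to 1 transcripts lower. The lowest counts came without old replicate 2, when 46 of all genes were higher and 16 lower. For collagen genes, the omission of young replicate 1 left 2 and 4, of young replicate 2 left 0 and 4, of young replicate 3 left 0 and 7, of old replicate 1 left 0 and 2, and of old replicate 3 left 2 and 2. The other settings kept every count within 1.5 times, and no direction turned. The sign split of the collagen genes was 16 positive and 25 negative, and 13 and 28 after quantile normalization. The causes were not tested.

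The labels number the samples 1 to 3 at both ages, but same-numbered samples did not deviate together (correlations over genes of 0.035, -0.094 and 0.041), so the number was not used as a pairing. With a replicate block, 1 collagen gene was higher and 4 were lower, 2 pathway genes were higher, and 0 collagen transcripts were lower.

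The precision is limited by 3 pools per age, and low genes rest on few fragments. FPKM of transcripts that share exons depend on how Cuffdiff divided their fragments.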
